A study of Mus musculus with 2 samples.

Results

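Two-pore domain potassium (K2P) channels are the background, or leak, potassium channels of excitable cells. Each subunit carries a pair of pore loops, the subunits assemble as dimers, and the open channels hold the membrane near the potassium equilibrium potential and so oppose firing. Sensory ganglia are known for the mechanically and thermally gated TREK and TRAAK channels, for the acid-inhibited TASK channels, for the halothane-inhibited THIK channels and for TRESK, which is activated by calcium through calcineurin. The 8 genes described here were taken by symbol from the gene lists of the deposited tables. They are Kcnk1 (TWIK1), Kcnk2 (TREK1), Kcnk10 (TREK2), Kcnk4 (TRAAK), Kcnk3 (TASK1), Kcnk12 (THIK2), Kcnk13 (THIK1) and Kcnk18 (TRESK). These are 8 of 14 genes with a Kcnk symbol in both libraries, and of 39098 gene symbols in all. The other 6 (Kcnk5, Kcnk6, Kcnk7, Kcnk9, Kcnk15 and Kcnk16) are given only for comparison.

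The study asked how trigeminal ganglion (TG) cells differ after orofacial inflammation, using single-cell RNA-sequencing on the BD Rhapsody platform. Both groups were male C57BL/6 mice aged 5 to 8 weeks, with no transgene or deletion. The CFA group received 20 µL of complete Freund's adjuvant, an oil emulsion with killed mycobacteria that causes lasting inflammation, mixed 1:1 with saline and injected into the right whisker pad. Right TGs were taken 7 days later. The control animals are called untreated in the sample labels, whereas the methods describe saline in place of CFA. The methods give 6 mice per group, and how many of them entered a library is not given in the sources used here.

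One library was deposited per group, so no difference between control and CFA has a replicate check, and none was tested. Intervals in parentheses are exact 95% intervals that cover counting error only. The control library held 6695 cells after filtering with 48233077 unique molecular identifiers (UMIs, each standing for 1 captured RNA molecule), and the CFA library held 3661 cells with 21658155 UMIs. Of these cells, 833 and 420 were neurons, with medians of 43386 and 35912.5 UMIs. These neurons held 38619164 and 16776422 UMIs, most of those of each library. The share of a gene's UMIs found in neurons is to be read beside these totals. The same cell label occurred in both files for 27 cells. A level is the UMIs of a gene per 1000000 UMIs of the cells summed (CPM), which can be compared between cell classes for 1 gene but not between genes. Where a pair of values is given, the control library comes first.

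Neurons were sorted into 9 gates by raw UMIs of marker genes and named by those genes. The Mrgprd gate (150 control and 58 CFA neurons) holds non-peptidergic nociceptors and the Mrgpra3 gate (45 and 13) itch-related non-peptidergic neurons. Somatostatin and natriuretic peptide B mark the Sst/Nppb gate (13 and 10), and the cold receptor marks the Trpm8 gate (42 and 21). The Tafa4/P2ry1 gate (68 and 42) corresponds to C-fibre low-threshold mechanoreceptors. Neurons rich in neurofilament heavy chain formed the Nefh-high gate (23 and 15) and, where they also held the peptide precursor Calca, the Nefh/Calca gate (10 and 7). Of the remaining Calca-rich neurons, those with at least 3 UMIs of the somatostatin receptor gene formed the Calca/Sstr2+ gate (98 and 64). Those with no such UMI formed the Calca/Sstr2- gate (192 and 96), and those in between met neither gate. A lack of UMIs depends on depth, and neurons of the Calca/Sstr2- gate had medians of 37965 and 31777.5 UMIs. The part of depth in which neurons entered that gate was not tested. A further 192 and 94 neurons met no gate or several and were counted only among all neurons. Among the leading genes of the Nefh-high gate were the antigen-presentation genes Cd74 and H2-Aa, and among those of the Calca/Sstr2- gate the interferon-induced genes Gbp4 and Ifi47, the fibroblast gene Dcn and the erythroid gene Hbb-bt. Summed fibroblast markers stood in the Calca/Sstr2- gate at 0.27% and 0.44% of their level in fibroblast-like cells, and erythroid markers at 0.017% and 0.0080% of theirs. The summed markers of 9 non-neuronal types lay in every gate at or under 1.12% of their level in their own type. Those of mural cells stood at 3.70% and 3.56% in Mrgpra3 neurons and at 3.43% and 3.88% in Tafa4/P2ry1 neurons. In the other gates they stood at or under 0.29%. Those of non-myelinating Schwann cells stood at 8.61% to 21.2%. That list shares markers with neurons, so its shares do not measure carried-over RNA alone. The part of RNA from other cells in the member levels was not tested.

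Of the 8 members, 7 had their highest level in the same gate in both libraries, and some members shared a first gate. The share of all genes with the same first gate in both libraries was not computed, so this count is not a result about the members. For Kcnk1, Kcnk10 and Kcnk12 the first and second gates were not told apart in either library. Kcnk1 and Kcnk2 were highest in Trpm8 neurons, Kcnk3 and Kcnk10 in Calca/Sstr2+ neurons, Kcnk12 and Kcnk13 in Mrgprd neurons, and Kcnk18 in Mrgpra3 neurons. Kcnk4 was the exception, with Calca/Sstr2- neurons first in the control and Trpm8 neurons first in the CFA library. The Trpm8 gate held no UMI of Kcnk10 or Kcnk18 in either library. The limit taken for a count of 0, 3 counts of the total, was 1.38 and 3.23 CPM, and the exact intervals ended at 1.69 and 3.97 CPM.

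**Figure D1:**
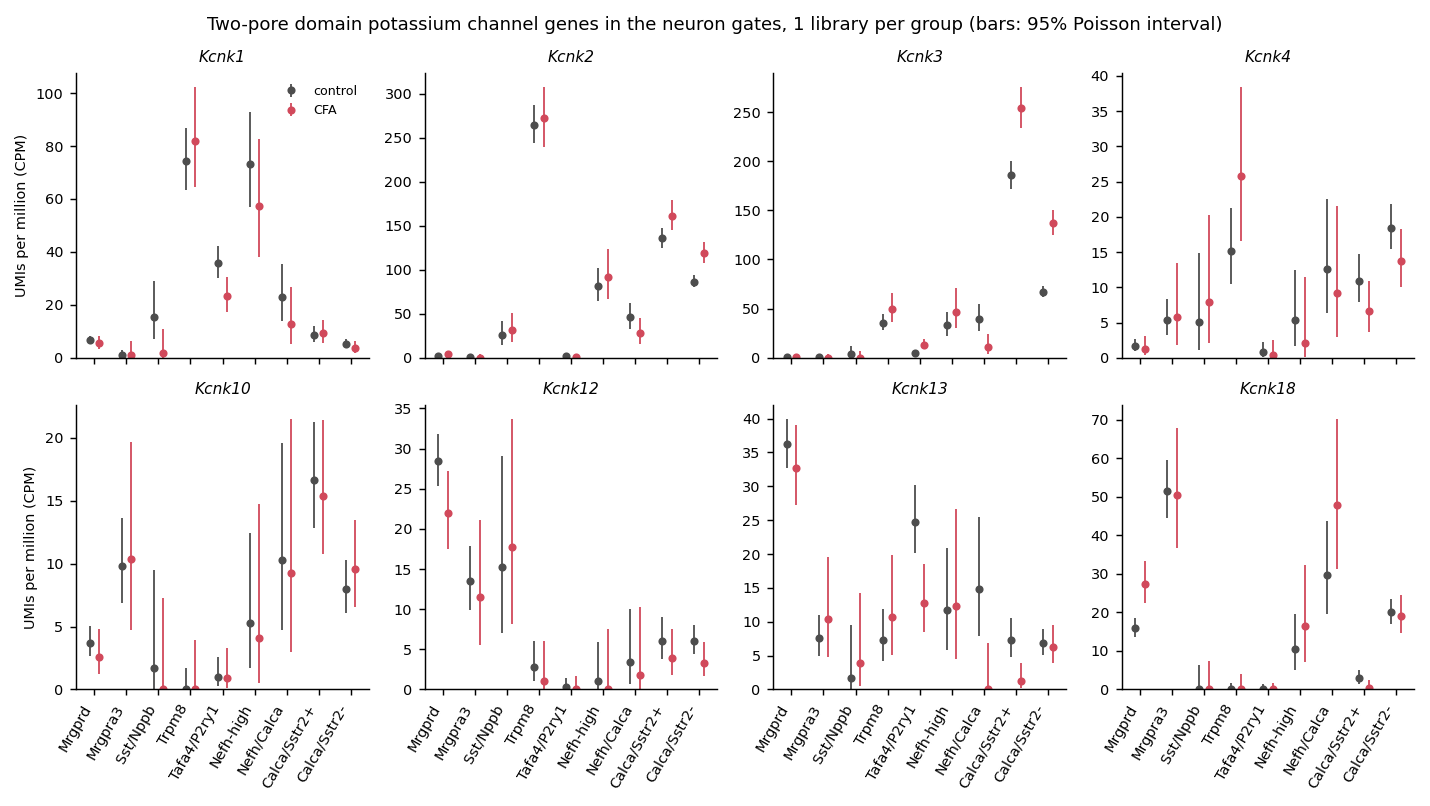
Level of each member (CPM) in the 9 neuron gates, with 1 point per library (grey, control; red, CFA) and its 95% Poisson interval. Each panel has its own scale from 0. The points of a gate lie close together for Kcnk1, Kcnk2 and Kcnk10 in the gate where each is highest, and apart for Kcnk3 in Calca/Sstr2- neurons (67.1 and 137 CPM).

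Kcnk1 encodes TWIK1, a weakly conducting member of the family (chr8:125995170-126030685, plus strand, GRCm38). Among neurons its highest levels were in the Trpm8 and Nefh-high gates. In Trpm8 neurons it measured 74.4 CPM (63.4 to 86.8) and 81.8 CPM (64.5 to 102). The Nefh-high gate followed with 73.4 CPM (57.1 to 92.8) and 57.2 CPM (38.0 to 82.7), and neither library separated these gates beyond counting error. Tafa4/P2ry1 neurons held 35.9 and 23.3 CPM. By summed counts, both libraries placed them below the Nefh-high gate (log2 differences of 1.03, 0.60 to 1.46, and 1.30, 0.58 to 1.99). In the CFA library a single neuron among the 15 of the Nefh-high gate held 14 of its 28 UMIs. The median neuron there was at 18.1 CPM in the Nefh-high and 18.9 CPM in the Tafa4/P2ry1 gate, and in the control at 61.1 and 33.7 CPM. The Nefh/Calca gate, at 22.9 and 12.9 CPM, was not separated from the Tafa4/P2ry1 gate in either library. The lowest level was in Mrgpra3 neurons, at 1.12 and 1.15 CPM. A Kcnk1 UMI was found in 33 of 42 and 16 of 21 Trpm8 neurons and in 61 of 68 and 27 of 42 Tafa4/P2ry1 neurons, which held 24.9% and 21.4% of the neuronal Kcnk1 UMIs.

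Most Kcnk1 UMIs of the kept cells lay outside neurons, a split that depends on which cells were captured. Neurons held 39.6% and 40.8% of its UMIs, while they held most UMIs of all genes together. Myelinating Schwann-like cells, which wrap the large axons, had 277 CPM (257 to 297) from 745 UMIs and 232 CPM (206 to 260) from 293 UMIs. The control level lay 4.23 (4.07 to 4.39) above that of all neurons on the log2 scale. A Kcnk1 UMI was found in 593 of 2217 and 241 of 1294 cells of this type, with at most 4 and 5 UMIs in a cell. Of the 2217 and 1294 cells, 1291 and 497 had at least 1000 UMIs and were thinned to that depth, and the rest were left out. The share with Kcnk1 was then 23.1% (20.8 to 25.5) and 21.1% (17.6 to 24.98). Among 925 and 343 satellite glia-like cells treated in the same way it was 0.54% and 0.29%. Median depths were 1098 and 890 UMIs in the Schwann-like cells and 2073.5 and 1883 UMIs in the satellite glia-like cells. Non-myelinating Schwann-like cells held 1 Kcnk1 UMI in each library. The log2 ratio of CFA over control was -0.26 (-0.46 to -0.06) in the myelinating type. Summed markers of these cells stood at or under 0.46% of their own level in the neuron gates, the highest in control Nefh-high neurons.

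Kcnk2 encodes TREK1, a channel opened by membrane stretch, warmth and lipids (chr1:189207930-189402273, minus strand). In Trpm8 neurons its level was 265 CPM (244 to 288) and 272 CPM (240 to 308), and all 42 and 21 neurons of that gate held a Kcnk2 UMI. Calca/Sstr2+ neurons came next with 136 and 162 CPM, then Calca/Sstr2- neurons with 86.6 and 119 CPM. Each step down was larger than counting error in both libraries. The Nefh-high gate (81.9 and 92.0 CPM) was not separated from the Calca/Sstr2- gate. Mrgprd, Mrgpra3 and Tafa4/P2ry1 neurons were nearly without Kcnk2, at 0 to 3.93 CPM.

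Kcnk2 was also a gene of supporting cells. Fibroblast-like cells measured 102 CPM (83.8 to 123) and 150 CPM (119 to 185). Satellite glia-like cells held 56.3 CPM (46.9 to 67.0) and 63.4 CPM (46.9 to 83.8). Myelinating Schwann-like cells had only 3.72 and 3.96 CPM, and oligodendrocyte-like cells none. RNA of neurons carried into other cells, measured as the sum of 13 neuron-only genes, reached 4.09% and 1.78% of the neuron level in fibroblast-like cells and 3.71% and 1.88% in satellite glia-like cells. A Kcnk2 UMI was found in 87 of 555 and 57 of 360 fibroblast-like cells. Of the 555 and 360 cells, 463 and 248 had at least 1000 UMIs. Thinned to that depth, 7.56% (5.32 to 10.4) of these control and 14.1% (10.03 to 19.1) of these CFA fibroblast-like cells held Kcnk2. The shares were 0.39% and 0.60% of myelinating Schwann-like cells with at least 1000 UMIs.

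Kcnk10, coding for the related TREK2 (chr12:98429437-98578310, minus strand), was sparse and had a different distribution. It was highest in Calca/Sstr2+ neurons, at 16.7 CPM (12.8 to 21.3) from 64 UMIs and 15.4 CPM (10.7 to 21.4) from 35 UMIs. Mrgpra3 neurons had 9.82 and 10.3 CPM, and Calca/Sstr2- neurons 8.01 and 9.55 CPM. The first place was not separated from the second in either library. Kcnk10 and Kcnk2 thus had their highest levels in different gates, and Kcnk10 was not found in the gate where Kcnk2 was highest.

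Kcnk4, the gene of the mechanically gated TRAAK (chr19:6923966-6934515, minus strand), measured 18.4 CPM (15.5 to 21.8) and 13.7 CPM (10.1 to 18.3) in Calca/Sstr2- neurons. In Trpm8 neurons it was 15.2 CPM (10.4 to 21.3) and 25.8 CPM (16.6 to 38.4). The Trpm8 gate was separated from the Calca/Sstr2- gate in the CFA library (0.91 on the log2 scale, 0.14 to 1.65) and not in the control. Tafa4/P2ry1 neurons held 3 and 1 UMIs. Exons of Kcnk4 overlap those of Catsperz on the same strand, a gene listed with 151 and 60 UMIs in neurons beside 329 and 127 of Kcnk4, so its level depends on how reads of the shared stretch were counted.

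Kcnk3 encodes TASK1, which closes in acid (chr5:30588170-30625271, plus strand). Among the gates its highest levels were in Calca/Sstr2+ and then Calca/Sstr2- neurons. Calca/Sstr2+ neurons had 186 CPM (172 to 200) and 254 CPM (234 to 276). Calca/Sstr2- neurons had 67.1 CPM (61.4 to 73.3) and 137 CPM (125 to 150). The Sstr2+ gate stood above the Sstr2- gate by 1.47 (1.30 to 1.63) and 0.89 (0.71 to 1.07) on the log2 scale. Trpm8 neurons held 35.4 and 49.5 CPM and Nefh-high neurons 33.0 and 47.0 CPM. The Nefh/Calca gate, also rich in Calca, held 39.0 and 11.1 CPM, and a single control neuron held 22 of its 34 control UMIs. Neurons that met no gate or several held 114 and 191 CPM, with 26.8% and 23.2% of the neuronal Kcnk3 UMIs. Tafa4/P2ry1 neurons had 4.80 and 13.2 CPM, with a Kcnk3 UMI in 13 of 68 and 16 of 42 neurons. Few UMIs were found in the remaining C-fibre gates, with 13 and 1 UMIs in Mrgprd, 1 and 0 in Mrgpra3 and 2 and 0 in Sst/Nppb neurons. The gene overlaps Gm9899 on the opposite strand (173 and 84 UMIs in neurons), and how strand was treated in counting is not given in the sources used here.

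In the Calca/Sstr2+ gate, 92 of 98 control and 60 of 64 CFA neurons held both Kcnk2 and Kcnk3, where nearly every neuron held each of them. In the Calca/Sstr2- gate both were found in 117 of 192 and 73 of 96 neurons, and 17 and 4 held neither. Kcnk2 was higher in the Calca/Sstr2- neurons with a Kcnk3 UMI (104 and 146 CPM) than in those without one (56.5 and 45.7 CPM). Median depths were 35775 and 30632 UMIs in the neurons with Kcnk3, and 40333 and 46134 UMIs in those without it. Kcnk18 divided the same gate the other way. Kcnk3 measured 20.7 and 32.1 CPM in its Kcnk18-positive neurons, and 93.3 and 176 CPM in its Kcnk18-negative neurons. Median depths were 44061 and 37734 UMIs in the Kcnk18-positive neurons, and 34539.5 and 29180 UMIs in the Kcnk18-negative neurons. These splits describe neurons of 1 library each and were not tested, nor was the part of depth in them.

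Among neurons, both THIK genes were highest in the Mrgprd gate. Kcnk12, which codes for THIK2 (chr17:87745801-87797994, minus strand), measured 28.5 CPM (25.4 to 31.9) and 22.0 CPM (17.5 to 27.2) in it. Mrgpra3 neurons had 13.5 and 11.5 CPM, and Sst/Nppb neurons 15.3 and 17.8 CPM from 9 UMIs in each library. The first and second gates could not be told apart from these counts. Neurons held 98.0% and 98.5% of all Kcnk12 UMIs, beside 38619164 of 48233077 and 16776422 of 21658155 UMIs of all genes.

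Kcnk13, which codes for THIK1 (chr12:99964499-100062682, plus strand), measured 36.2 CPM (32.7 to 40.01) and 32.7 CPM (27.2 to 39.0) in Mrgprd neurons, above the Tafa4/P2ry1 gate with 24.8 CPM (20.1 to 30.2) and 12.8 CPM (8.49 to 18.5). In Mrgprd neurons 101 of 150 control and 37 of 58 CFA cells held UMIs of both THIK genes. Unlike Kcnk12, Kcnk13 reached its highest level outside neurons. Oligodendrocyte-like cells, the myelinating cells of the central part of the root, had 108 CPM (79.3 to 144) and 106 CPM (81.8 to 136). Macrophage-like cells had 49.5 CPM (30.6 to 75.6) and 27.9 CPM (12.03 to 54.9), above all neurons in the control and not separated from them in the CFA library (1.09 on the log2 scale, -0.14 to 2.10). Satellite glia-like cells held 3 Kcnk13 UMIs in each library. Neuron-only RNA stood at 3.06% and 1.84% of its neuron level in oligodendrocyte-like cells and at 4.22% and 1.67% in macrophage-like cells.

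**Figure D2:**
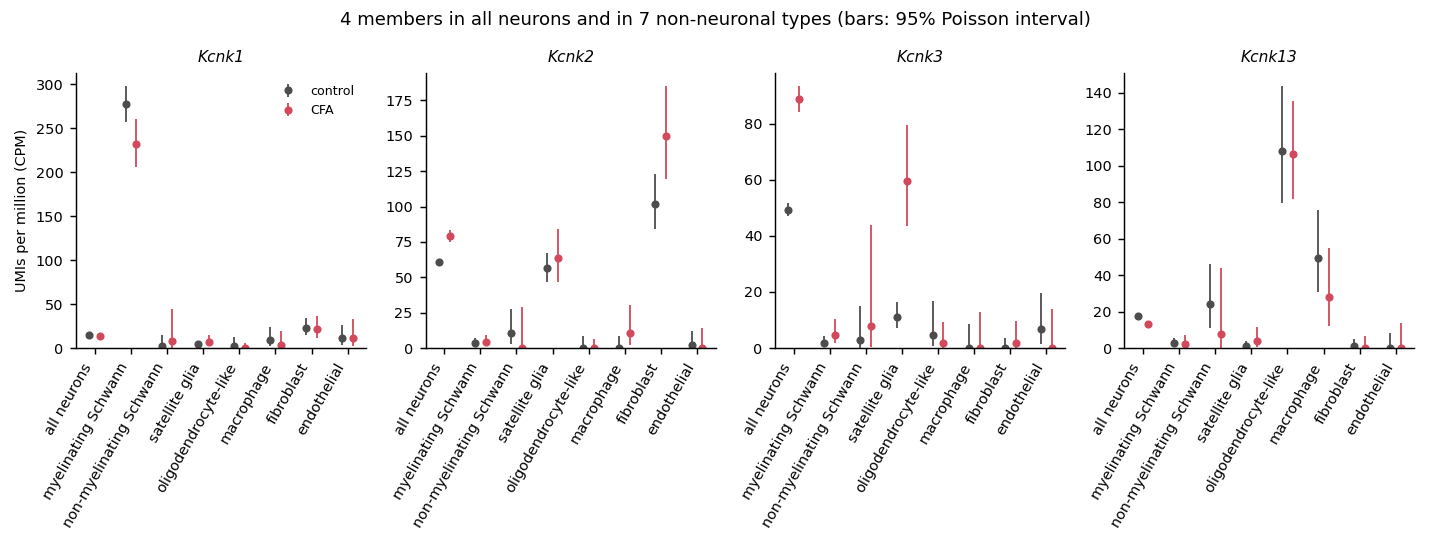
Level (CPM) of the 4 members with most UMIs outside neurons, in all neurons and 7 non-neuronal types, with 1 point per library (grey, control; red, CFA) and its 95% Poisson interval. Kcnk1 stands out in myelinating Schwann-like cells (277 and 232 CPM) and Kcnk13 in oligodendrocyte-like cells (108 and 106 CPM), while Kcnk3 in satellite glia-like cells differs between the libraries (11.2 and 59.5 CPM). Mural cells, with the highest Kcnk3 level outside neurons but from 7 and 2 UMIs, are not drawn.

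Kcnk18 encodes TRESK (chr19:59219214-59237374, plus strand). Neurons held 98.7% and 98.5% of its UMIs, the largest share among the members in the control library, where neurons held most UMIs of all genes. In Mrgpra3 neurons it measured 51.6 CPM (44.4 to 59.6) and 50.6 CPM (36.7 to 67.9), and 40 of 45 and 12 of 13 of these neurons held it. The Nefh/Calca gate followed with 29.8 CPM (19.5 to 43.7) and 48.0 CPM (31.3 to 70.3) from 26 UMIs in each, below the Mrgpra3 gate by 0.79 (0.20 to 1.45) on the log2 scale in the control and not separated from it in the CFA library. Calca/Sstr2- neurons had 20.0 and 19.1 CPM. In that gate only 58 of 192 and 21 of 96 neurons held Kcnk18, and the 10% of neurons with most Kcnk18 held 62.7% and 70.3% of its UMIs. Mrgprd neurons measured 16.1 CPM (13.7 to 18.6) and 27.5 CPM (22.5 to 33.3). Trpm8 and Sst/Nppb neurons had no Kcnk18 UMI, and Tafa4/P2ry1 neurons had 1 in the control and none in the CFA library.

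Over all neurons, Kcnk3 was higher and Kcnk12 lower in the CFA library by more than 0.5 on the log2 scale, the size taken here as past the fold for genes with at least 50 counts. Among all 14512 genes with so many counts, 6.19% were higher and 6.17% lower by that size, and of the 8 members 1 was higher and 1 lower, too few to read against these shares. Kcnk3 went from 49.3 to 88.6 CPM, a ratio of 0.85 (0.75 to 0.95), and Kcnk12 from 12.7 to 8.05 CPM, a ratio of -0.66 (-0.94 to -0.38). Kcnk2 (0.38, 0.28 to 0.48) and Kcnk13 (-0.45, -0.67 to -0.23) lay beyond counting error but under the fold. Kcnk1 (-0.06), Kcnk4 (-0.17), Kcnk10 (-0.03) and Kcnk18 (0.01) had intervals that held 0. The median over the 8 members was -0.05, beside -0.0022 over all genes.

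The mix of neuron classes differed between the libraries. Mrgprd neurons made up 18.0% of control and 13.8% of CFA neurons, and Calca/Sstr2+ neurons 11.8% and 15.2%. With every gate given the same weight in both libraries, Kcnk3 was 0.68, Kcnk2 0.26, Kcnk13 -0.32 and Kcnk18 0.25, and Kcnk12 was -0.47, no longer past the fold.

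Within single gates, 31 of 72 pairs of a member and a gate had at least 50 counts. Of these, 5 were higher and 7 lower past the fold, beside 6.65% and 9.0% of all pairs of a gene and a gate. The pairs of all genes were not matched to the members for counts, so the member counts are not read against these shares. The interval left out 0 for 4 of the 12, and these 4 are described in turn. The other 8 were Kcnk4 in Trpm8 (0.77) and Calca/Sstr2+ neurons (-0.73), Kcnk3 in Nefh-high (0.51), Kcnk18 in Nefh/Calca (0.69), Kcnk2 in Nefh/Calca (-0.73), Kcnk10 in Mrgprd (-0.51), and Kcnk1 (-0.50) and Kcnk12 (-0.87) in Calca/Sstr2- neurons. The median of the 31 pairs was -0.07. Among pairs with fewer counts, Kcnk3 had 19 and 29 UMIs in Tafa4/P2ry1 neurons (1.46, 0.58 to 2.38) and 34 and 6 UMIs in Nefh/Calca neurons (-1.81, -3.36 to -0.55), and Kcnk13 had 28 and 3 UMIs in Calca/Sstr2+ neurons (-2.46, -4.83 to -0.77). Kcnk13 had 13 and 0 UMIs in Nefh/Calca neurons (upper limit of the log2 ratio -0.92), and Kcnk1 had 9 and 1 UMIs in Sst/Nppb neurons (-2.95, -8.41 to -0.10). In the control Nefh/Calca gate, a single neuron held 22 of the 34 Kcnk3 UMIs. A single neuron there also held 22 of the 40 Kcnk2 UMIs, and a single neuron 8 of the 13 Kcnk13 UMIs. The 28 control Kcnk13 UMIs of the Calca/Sstr2+ gate came from 9 of 98 neurons. The intervals do not cover such spread between neurons.

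**Figure D3:**
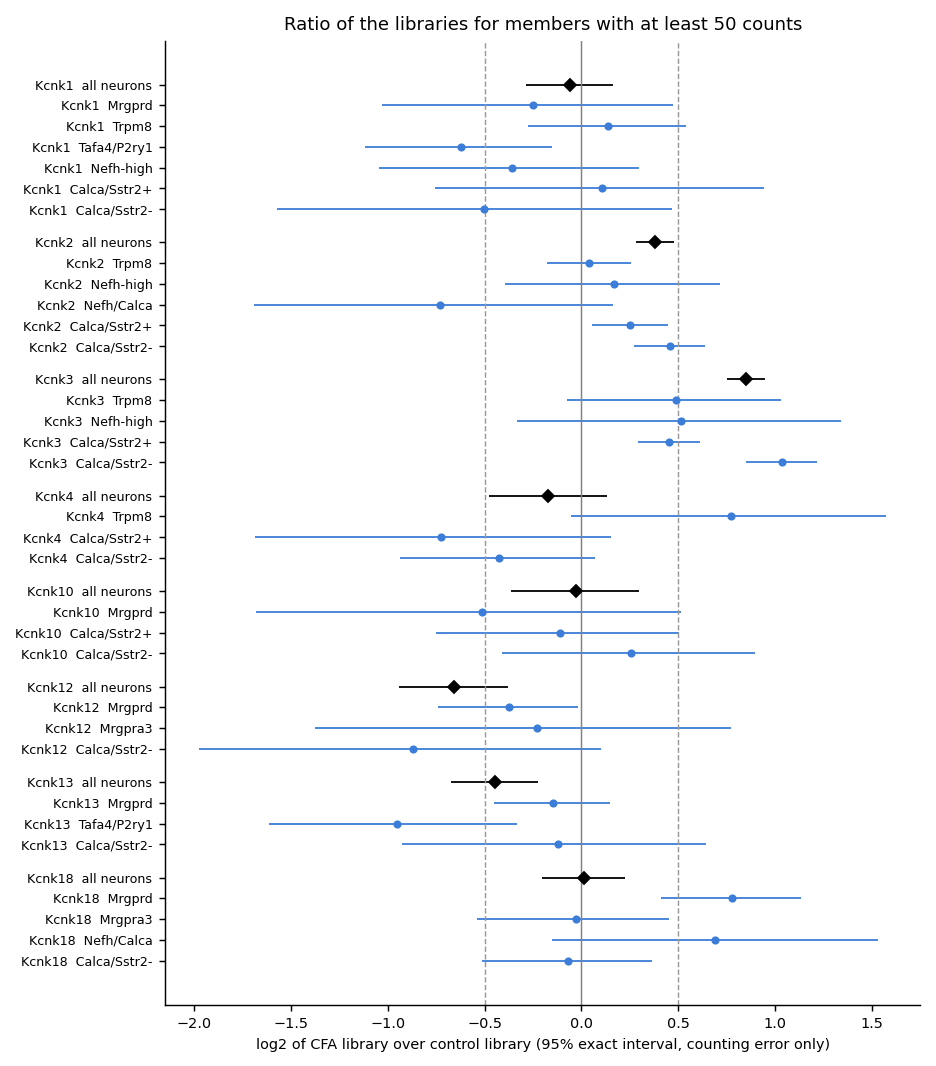
Log2 ratio of the CFA over the control library for each member with at least 50 counts, in all neurons (black diamonds) and in single gates (blue circles), with 95% exact intervals for counting error. The dashed lines mark 0.5 in each direction. Kcnk3 in Calca/Sstr2- neurons (1.03) and Kcnk18 in Mrgprd neurons (0.78) lie to the right with intervals that leave out 0, and Kcnk1 (-0.62) and Kcnk13 (-0.95) in Tafa4/P2ry1 neurons lie to the left.

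The largest of these 31 ratios in size was that of Kcnk3 in Calca/Sstr2- neurons, which rested on 503 control and 460 CFA UMIs. Its log2 ratio of 1.03 (0.85 to 1.22), a level 2.05-fold higher after CFA, stood in a gate where 5.49% of 10879 genes were higher past the fold. The median neuron held 35.8 and 105 CPM, with quartiles of 0 to 118 and 30.5 to 245 CPM. A UMI was found in 125 of 192 and 75 of 96 neurons. Thinned to 10000 UMIs, 78 of 184 control neurons (42.4%, 35.2 to 49.9) and 57 of 94 CFA neurons (60.6%, 50.02 to 70.6) held Kcnk3, against 0 of 148 and 0 of 57 Mrgprd neurons, whose median depths were 74313.5 and 62963.5 UMIs. Calca/Sstr2+ neurons, where nearly every cell held the gene, had a ratio of 0.45 (0.29 to 0.61), and Trpm8 neurons 0.49 (-0.07 to 1.03). The difference between the gates was not tested. Interferon-induced RNA (at least 10 UMIs of 6 genes, a limit set after the data were seen) marked 30 of 192 control and 4 of 96 CFA Calca/Sstr2- neurons, and without such neurons the ratio was 1.09. With the marker minimums taken as CPM of each neuron in place of raw UMIs it was 0.79, below the counting interval of the reported 1.03. Median depths of the gate were 37965 and 31777.5 UMIs. Kcnk18-positive neurons, in which Kcnk3 was lower, were 58 of 192 control and 21 of 96 CFA neurons of the gate. The part of depth and of this mix in the ratio was not tested.

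**Figure D4:**
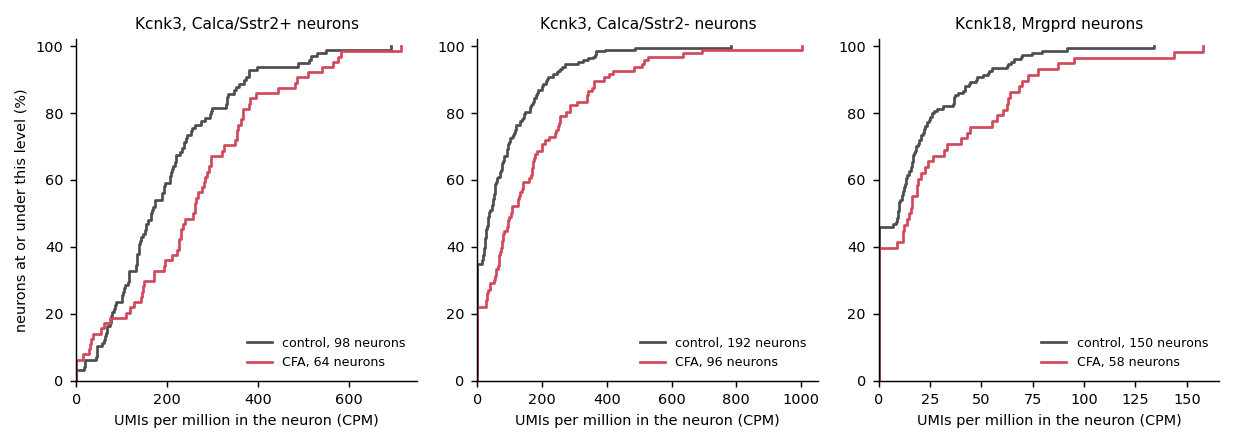
Share of neurons at or under a given level (CPM within the neuron), for Kcnk3 in the 2 Calca gates and for Kcnk18 in the Mrgprd gate; grey, control; red, CFA. The CFA curve of Kcnk3 in Calca/Sstr2- neurons starts lower, with fewer neurons at 0, and stays to the right (medians of 35.8 and 105 CPM).

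Kcnk18 in Mrgprd neurons rested on 172 and 105 UMIs and was 1.71-fold higher after CFA. The log2 ratio was 0.78 (0.41 to 1.13), in a gate where 4.18% of 10756 genes were higher past the fold. A UMI was found in 81 of 150 and 35 of 58 neurons. After thinning to 10000 UMIs the share was 16.9% (11.2 to 23.9) and 24.6% (14.1 to 37.8), with overlapping intervals, against 2.04% and 1.56% of Calca/Sstr2+ neurons (median depths of 35363.5 and 34010 UMIs). In Mrgpra3 neurons, where Kcnk18 was highest, the ratio was -0.03 (-0.54 to 0.45).

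Both members with at least 50 counts in Tafa4/P2ry1 neurons were lower there in the CFA library, in a gate where 7.49% of 9357 genes were lower past the fold. Those genes were not matched to the members for counts, so the members are not read against that share. Kcnk13 had 98 and 28 UMIs and a ratio of -0.95 (-1.61 to -0.34). Kcnk1 had 142 and 51 UMIs and a ratio of -0.62 (-1.11 to -0.15). Kcnk3, with 19 and 29 UMIs and so under that minimum, was higher in the same gate (1.46, 0.58 to 2.38). Without the neurons richest in non-neuronal marker RNA, Kcnk1 was at -0.13 in this gate and Kcnk13 at -1.21. The highest marker sums in this gate were those of the non-myelinating Schwann list (1401 and 1566 CPM) and the mural list (953 and 986 CPM). The mural list also stood at 1029 and 904 CPM in Mrgpra3 neurons, and at or under 73.6 CPM in the other gates. The non-myelinating Schwann list shares markers with neurons, so this filter does not select on carried-over RNA alone. It ranked neurons of all gates together, so it can leave out more neurons of a gate with high sums. How many neurons of this gate it left out is not given here, and the source of the mural sums was not tested. Why the Kcnk1 ratio moved was not tested.

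Outside neurons, Kcnk1 reached 50 counts in myelinating Schwann-like and Kcnk13 in oligodendrocyte-like cells. Kcnk2 reached them in satellite glia-like and fibroblast-like cells, and Kcnk3 in satellite glia-like cells. No other member did so in any type. Of these pairs, Kcnk3 in satellite glia-like and Kcnk2 in fibroblast-like cells were higher past the fold, and none was lower. The highest Kcnk3 level outside neurons was that of mural cells, at 78.4 CPM (31.5 to 162) and 71.2 CPM (8.63 to 257). It came from only 7 and 2 UMIs, while neuron-only RNA stood at 4.36% and 3.80% of its neuron level in them. Kcnk3 in satellite glia-like cells, the cells that wrap neuron bodies, measured 11.2 CPM (7.22 to 16.5) and 59.5 CPM (43.6 to 79.4), from 25 and 46 UMIs. The log2 ratio was 2.41 (1.68 to 3.18), where 10.7% of 7294 genes were higher past the fold in this type. The UMIs were spread over 23 of 992 control and 36 of 375 CFA cells, with at most 2 and 5 in a cell. Of the 992 and 375 cells, 925 and 343 had at least 1000 UMIs. Thinned to that depth, 0.97% (0.45 to 1.84) and 5.83% (3.60 to 8.86) of these held Kcnk3. With the same limit, 0.31% and 0.40% of myelinating Schwann-like cells and 0 of 463 and 0 of 248 fibroblast-like cells held it. Median depths of all fibroblast-like cells were 1759 and 1307 UMIs. Neuron-only RNA was lower in the CFA than in the control satellite glia-like cells (1.88% and 3.71% of the neuron level). Among satellite glia-like cells without any neuron-only UMI, Kcnk3 was at 6.63 CPM from 4 UMIs and 49.6 CPM from 20 UMIs. Under a stricter filter (300 or more genes, and mitochondrial counts of 10% or less) the ratio was 1.74 (0.76 to 2.73), from 19 and 20 UMIs. In the control, 29.0% of satellite glia-like cells held at least 3 UMIs of the interferon-induced genes, and 15.5% did after CFA, with the Kcnk3 ratio at 2.41 without such cells.

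Kcnk2 in fibroblast-like cells had a ratio of 0.55 (0.13 to 0.97), in a type where 12.5% of 5110 genes were higher past the fold. Among those without any neuron-only UMI it was 0.94 (0.23 to 1.69), from 24 and 57 UMIs. This alternative was chosen after the data were seen. So were the other alternatives for ratios in non-neuronal types, among them the stricter filter and the one without the cells that held interferon-induced RNA.

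The rest of the family was low in neurons apart from Kcnk9, which encodes TASK3, a relative of TASK1. Kcnk9 measured 78.6 and 61.4 CPM in Trpm8 neurons, followed by 11.7 and 30.7 CPM in Nefh-high neurons and 8.28 and 9.25 CPM in Calca/Sstr2- neurons. Its ratio was -0.07 (-0.38 to 0.23) in all neurons and 1.39 (0.17 to 2.66) in Nefh-high neurons, from 11 and 15 UMIs. Kcnk5 (TASK2) had 12 and 1 UMIs in neurons but 21.6 and 44.3 CPM in myelinating Schwann-like cells. It was at 43.4 and 55.1 CPM in non-myelinating Schwann-like cells, from 16 and 7 UMIs, and at 16.1 and 19.4 CPM in satellite glia-like cells. Kcnk6 (TWIK2) was found mainly in macrophage-like cells, at 66.0 and 27.9 CPM. Kcnk7, Kcnk15 and Kcnk16 gave 1 to 11 UMIs each in the neurons of a library.

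A list of 17 genes for proteins that bind or regulate K2P channels held the 14-3-3 proteins, which bring TASK and TRESK channels to the surface or bind them, the calcineurin subunits, S100a10 (p11), Copb1 of the COPI coat, Akap5, Map2 and Stx8. Of the 16 with at least 50 counts in neurons, none was past the fold in either direction, beside 6.19% of all genes higher and 6.17% lower. Their median ratio was 0.03 and they ranged from -0.16 for Ppp3r1 to 0.37 for Ywhaz. Ppp3ca, the main catalytic calcineurin subunit of neurons, stood at 0.30 (0.28 to 0.32). Ppp3ca and the ends of the range were named after their values were seen.

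For each member, the 3 genes with the most similar level over the 18 points of 9 gates and 2 libraries were taken from 9501 genes by Pearson's r of log2(CPM + 10), as a description of points that share libraries and depth. Kcnk1 was most like Rell2, Tpbgl and the sodium channel gene Scn1a (r = 0.95 to 0.96). Kcnk2 was most like Pde8b, the potassium channel subunit gene Kcnmb2 and Zfp536 (0.92 to 0.93). For Kcnk3 the genes were Rnd3, Dpyd and Exoc6 (0.93 to 0.94), and for Kcnk12 Plek2, Ctdspl and Ppp1r14b (0.94 to 0.95). Kcnk10 was most like Nxn, Cnih2 and Cfap20 (0.90 to 0.91), and Kcnk4 like Rasl11a, Fam104a and Ebf2 (0.87 to 0.88). Kcnk13 was most like Mrps6, Tmem50b and Gm32635 (0.85 to 0.92) and Kcnk18 like Ly86, Aox1 and Aars2 (0.86 to 0.87). Among the members themselves, Kcnk2 and Kcnk3 were the most alike (0.81), and Kcnk1 and Kcnk12 the least (-0.67).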

How the data were processed

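The authors deposited raw UMI counts, whole numbers for each cell and gene, for 1 control and 1 CFA library. The submitters' processing notes name fastp and the GRCm38 build. The counting software, its strand setting and the annotation are not given in the sources used here. Kept cells had 150 genes or more and at most 25% mitochondrial UMIs, the limits in the study's methods. Neurons needed 30 UMIs and 4000 CPM over 6 neuronal markers. The 9 gates used raw marker UMIs, and the 11 non-neuronal types the marker list with the highest share, at least 2-fold above the next. Of the kept cells, 1051 and 521 met no class. No doublet caller was run. The members, lists and gates were chosen with earlier results of these data known, and the gate limits after marker counts were seen, so no list or direction here is independent evidence.

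UMIs were added up over the cells of a class, library by library, and divided by their total. CPM have exact Poisson, ratios conditional exact binomial and shares Clopper-Pearson intervals (95%). Cells under the thinning depth (10000 UMIs for neurons, 1000 UMIs for other cells) were left out of the thinned shares. Genes named were the members, the other Kcnk genes, the partner list and the 3 genes most like each member among those with at least 500 neuron counts. Gene positions came from GENCODE M21 (GRCm38). The ratio step was run on simulated counts with known folds and counting error only, so spread between neurons was not covered. Python 3.11.15, numpy 2.4.6, scipy 1.17.1 and pandas 2.3.3 were used.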

Additional observations from a re-analysis of the deposited data

Results flagged for a closer look

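Kcnk4 lay past the fold in opposite directions in 2 neuron gates. The log2 ratio of the CFA over the control library was 0.77 (-0.05 to 1.57) in Trpm8 neurons, from 33 and 24 UMIs, and -0.73 (-1.68 to 0.15) in Calca/Sstr2+ neurons, from 42 and 15 UMIs. Both intervals held 0, and the difference between the gates was not tested. With the marker minimums of the gates multiplied by 2, the ratio in Calca/Sstr2+ neurons was 0.05.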

How the results depend on the processing

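No paired analysis was possible because each group has 1 library, and for the same reason no replicate could be left out. Of 307 values under alternative settings, 291 stayed within the counting interval of the reported value or within 1.5 times a reported count, and none reversed beyond counting error. A reversal was counted only where the reported interval left out 0, so sparse members with wide intervals could not reverse. Kcnk4 in Calca/Sstr2+ neurons went from -0.73 to 0.05 and still lay within its interval. The tally therefore does not measure how firm the sparse values are. With the same gate weights in both libraries, the all-neuron log2 ratios were 0.68 for Kcnk3, 0.26 for Kcnk2 and 0.25 for Kcnk18, and 0 members were lower past the fold. With every cell weighted equally, Kcnk13 was at -0.17. Without neurons holding interferon-induced RNA, an alternative chosen after the data were seen, Kcnk3 was at 0.95. With a log2 ratio of 0.3 as the fold, 2 members were higher and 2 lower, and with a log2 ratio of 1 there were 0 and 0. Member and gate pairs past the fold were 3 higher and 3 lower with the marker minimums multiplied by 2. There were 4 lower with minimums as CPM, and 3 lower without the neurons richest in non-neuronal marker RNA. The shares of all genes past 0.3 and 1, and of all gene and gate pairs under the altered settings, were not computed. These counts therefore have no background beside them and are not a result about the members. The gate with the highest level moved for Kcnk1 in the control library to Nefh-high neurons with equal cell weights or without interferon-induced RNA. For Kcnk10 in the CFA library it moved to Nefh/Calca neurons with doubled minimums. For Kcnk18 in the CFA library it moved to Nefh/Calca neurons without the neurons richest in non-neuronal marker RNA. The cause of these moves was not tested. Gates with few neurons and the smaller CFA library limit the depth, and a gate at 0 counts bounds a level only.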
